A study of Caenorhabditis elegans with 2 samples.

Results

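Of the nuclear genes that copy and transcribe the mitochondrial genome, mtss-1 carried an NHR-76 peak in its upstream sequence that both replicates ranked high. The gene hmg-5 had a weaker one just inside the gene. The genes twnk-1, polg-1 and rpom-1 had candidates weaker than that of hmg-5 by pooled signal, none overlapped by peaks of both replicates. The 5 genes are mtss-1, hmg-5, twnk-1, polg-1 and rpom-1, of 19973 nuclear protein-coding genes in the annotation. They were chosen by their role in mitochondrial DNA upkeep and around the final peak at mtss-1, so the peak signals below describe the genes and were not tested. A peak belonged to a gene when its summit lay within 1000 bp of an annotated 5′ end or inside the gene body. The data are ChIP-seq of the Caenorhabditis elegans nuclear hormone receptor NHR-76, from whole embryos of mixed stages and pooled sexes, in 2 biological replicates of 1 group. The worms were of strain OP203, unc-119(ed3) III with the transgene wgIs203, which adds NHR-76 fused at its C terminus to GFP and FLAG. Both replicates share the mutation, the transgene and the stage, and the tissue in which a peak arose was not resolved.

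The mitochondrial genome is a small circle that nuclear genes maintain from outside. The Twinkle helicase (twnk-1) unwinds it, the gamma polymerase (polg-1) copies it, and a single-stranded DNA-binding protein (mtss-1) coats the exposed strand. HMG-5 is the worm counterpart of the packaging and transcription factor TFAM, and RPOM-1 is the mitochondrial RNA polymerase. NHR-76 is known from work on fat loss in the intestine.

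The lists differ in length and usual width, and depth is unknown because no read numbers were used here. Replicate 1 held 7516 peaks, mostly 360 bp wide, and replicate 2 held 30000, mostly 420 bp wide. The pooled list, made by the authors from both replicates together, held 30000 candidates, which include background, and the final list held the 140 peaks kept by the irreproducible discovery rate procedure. The lowest −log10 q was 2.62 in replicate 1, 0.0594 in replicate 2 and 0.0893 in the pooled list. Absence from replicate 1 and absence from replicate 2 are therefore not alike. Signal is the authors' value per peak, on a scale that is not stated, and each value is read within its own list.

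The sequence under the strongest candidate is shown for the genes whose peaks are discussed most, read 5′ to 3′ along each gene in WBcel235, the assembly of ce11. Capitals mark the summit of the pooled peak with 10 bases on each side. For mtss-1 the 300 bases before the 5′ end are given (chrIII:8768011-8768310, plus strand), because they hold the final peak's summit. The hmg-5 stretch (chrIV:7645858-7646008, minus strand) runs from the end of exon 1 across the whole of intron 1 into exon 2. The polg-1 stretch (chrII:12198917-12199017, minus strand) is largely exon 2, and that of twnk-1 (chrX:5795824-5795924, plus strand) is intronic. They are shown as the contrast to mtss-1.
mtss-1: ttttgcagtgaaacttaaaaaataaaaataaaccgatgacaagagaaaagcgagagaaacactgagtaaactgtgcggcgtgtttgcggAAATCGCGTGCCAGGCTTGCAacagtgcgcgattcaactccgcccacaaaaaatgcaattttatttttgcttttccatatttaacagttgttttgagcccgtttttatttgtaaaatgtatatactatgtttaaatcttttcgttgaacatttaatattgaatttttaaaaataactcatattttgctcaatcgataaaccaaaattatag
hmg-5: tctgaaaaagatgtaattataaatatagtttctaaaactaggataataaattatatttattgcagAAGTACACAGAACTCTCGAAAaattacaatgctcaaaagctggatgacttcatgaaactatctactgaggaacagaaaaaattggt
polg-1: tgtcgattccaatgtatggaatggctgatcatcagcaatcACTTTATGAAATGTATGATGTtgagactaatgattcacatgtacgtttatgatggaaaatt
twnk-1: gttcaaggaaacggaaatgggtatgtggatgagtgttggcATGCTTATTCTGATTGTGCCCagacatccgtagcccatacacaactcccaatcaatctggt

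The single-stranded DNA-binding protein gene mtss-1 (WBGene00019800, chromosome III, 8768311 to 8769255, plus strand) had 1 peak in every list. In the pooled and final lists it lay at 8767940 to 8768279 with a signal of 28.0, rank 60 of 30000 and a −log10 q of 3.16, a ceiling shared by 725 pooled candidates and by all 140 final peaks. In replicate 1 the signal was 11.7, rank 29 of 7516. In replicate 2 it was 18.2, rank 94 of 30000. Both replicates placed it among their strongest peaks, but the genes were chosen around this final peak, so that is not read as support. The pooled and replicate 2 summits were at the same base, 201 bp upstream of the 5′ end. The replicate 1 summit was 25 bp further upstream.

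The mtss-1 peak stood in the middle of the final set by pooled signal and nearer its top in replicate 1. Of the 122 nuclear final peaks, 44 had a stronger pooled signal, and their median was 24.9. In replicate 1, which listed 112 of them, 11 nuclear final peaks were stronger, and in replicate 2 the number was 70. On chromosome III the peak ranked 10 of 28 final peaks. The weakest final peak had a signal of 19.98 and the first candidate below the final set 19.90.

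The peak lay in the interval between a divergent gene pair. The 5′ end of mig-22, which encodes a chondroitin polymerizing factor, faces that of mtss-1 on the other strand across a gap of 968 bp. The summit was 201 bp from mtss-1 and 768 bp upstream of mig-22, so by the 1000 bp rule the same peak belongs to both genes. The nearest candidate outside the rule was at 8769934 to 8770273, 849 bp beyond the end of mtss-1, with a signal of 4.49 and rank 13772. No other candidate of the pooled list fell in the mtss-1 window.

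The TFAM counterpart hmg-5 (WBGene00001975, chromosome IV, 7644895 to 7646219, minus strand) had 1 peak in each of the pooled and replicate lists and none in the final list. The pooled candidate, at 7645763 to 7646102, had a signal of 9.05, rank 1546 and a −log10 q of 1.92. Replicate 1 gave a signal of 2.82 (rank 3482 of 7516) and replicate 2 a signal of 5.95 (rank 4880 of 30000). The 3 summits fell within 47 bp of one another, 239 to 286 bp downstream of the 5′ end, the pooled one in exon 2 and both replicate ones in intron 1. Its neighbour nrde-4, a gene of nuclear RNA interference, ends 100 bp upstream on the same strand, so the sequence before hmg-5 is short and not shared by a divergent gene.

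The helicase gene twnk-1 (WBGene00018514, chromosome X, 5791215 to 5797343, plus strand) has 4 annotated 5′ ends and had 4 pooled candidates, with signals of 6.40, 4.12, 3.97 and 2.88. The strongest, at rank 5391, lay 2543 bp downstream of the nearest 5′ end, in an intron. Replicate 1 listed 1 peak, with a signal of 2.75 (rank 3749), at 234 bp upstream of an internal 5′ end. Replicate 2 listed 4, with signals from 3.89 to 4.68. The replicate 1 peak overlapped none of the replicate 2 or pooled peaks, so the replicates marked different places in the gene. Short ncRNA genes lie among these candidates, with F46G11.17 starting 176 bp from the strongest summit, F46G11.7 654 bp from that upstream of twnk-1, and F46G11.12 and F46G11.15 329 and 537 bp from the weakest.

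The polymerase gene polg-1 (WBGene00013258, chromosome II, 12189789 to 12199962, minus strand) had 4 pooled candidates, with signals of 5.74, 4.46, 4.07 and 3.43. The strongest, at rank 7502, was in exon 2, 995 bp downstream of the 5′ end, and the next, at rank 13977, had its summit 7 bp upstream of the 5′ end. Replicate 2 listed 3 peaks with signals of 4.09, 3.67 and 3.01, each overlapping a pooled candidate. Replicate 1 listed 0 peaks at polg-1, the single gene of the 5 with none there, so no polg-1 candidate was matched in that replicate.

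The RNA polymerase gene rpom-1 (WBGene00013680, chromosome I, 14552030 to 14565853, minus strand), at 13824 bp the longest of the 5, had 2 pooled candidates with signals of 4.11 (rank 16610) and 4.02 (rank 17358). Their summits lay 2072 and 3099 bp downstream of the nearest 5′ end. Replicate 1 listed 2 peaks (2.88 and 2.80) and replicate 2 listed 4 (2.93 to 3.60). The stronger pooled candidate overlapped the replicate 1 peak of signal 2.80, with summits 30 bp apart, and no peak of replicate 2. No list had a summit within 1000 bp of either 5′ end of rpom-1.

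**Figure D1:**
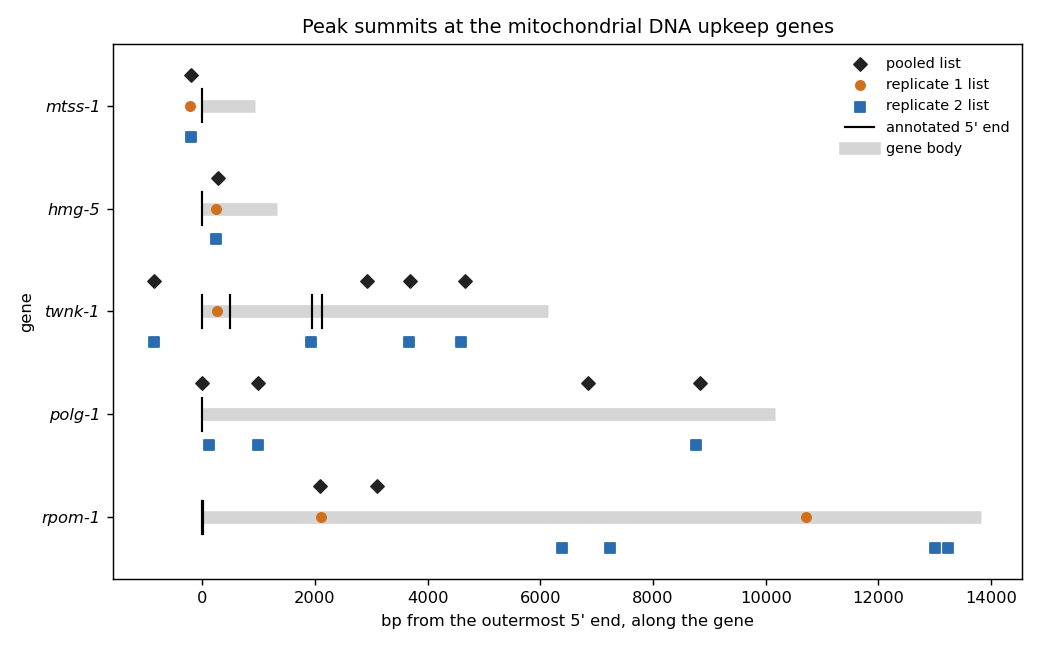
Summits of listed peaks at each gene, in bp from its outermost 5′ end (x axis) for the 5 genes (y axis); grey bars are gene bodies, black ticks annotated 5′ ends, and diamonds, circles and squares the pooled, replicate 1 and replicate 2 lists. The 3 lists coincide upstream of mtss-1 and just inside hmg-5, and scatter over twnk-1, polg-1 and rpom-1.

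**Figure D2:**
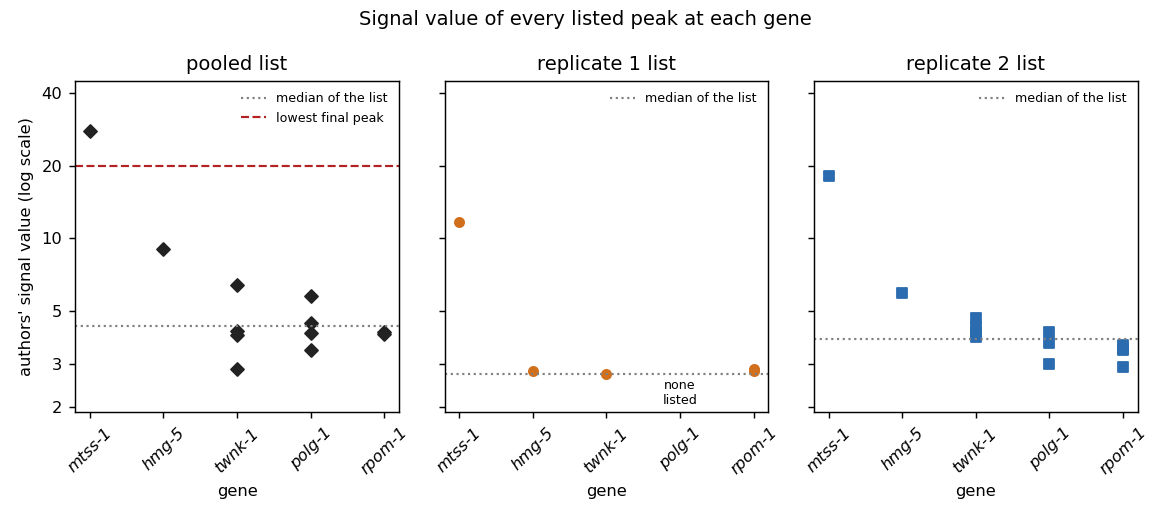
The authors' signal value (log scale, y axis) of every listed peak at each gene (x axis) in the pooled, replicate 1 and replicate 2 lists; dotted lines are list medians and the dashed line the lowest final peak. Scales may differ between lists. mtss-1 is the highest of the 5 in each list, at 28.0, 11.7 and 18.2.

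All 5 genes had a pooled candidate, but so did most genes. A pooled candidate was found at 5 of the 5, against 66.7% of all nuclear protein-coding genes. A replicate 1 peak was found at 4 of the 5, against 26.6% of all, and a replicate 2 peak at 5 of the 5, against 65.0%. A final peak fell to 1 of the 5 genes, mtss-1, where the share over all genes was 0.716%. The list was built around that peak, so nothing is read from this count. A pooled candidate overlapped by a peak of each replicate was found at 2 of the 5, mtss-1 and hmg-5, against 10.4% of all genes. The chosen peak at mtss-1 enters each of these counts, and 91.8% of nuclear final peaks were overlapped by both replicates. None of the counts is therefore read as a result about the 5 genes.

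Gene length bears on these counts, since the rule takes in the whole gene body. The lengths of rpom-1, polg-1 and twnk-1 were equal to or above those of 97.5%, 95.2% and 88.4% of genes, while mtss-1 (945 bp) and hmg-5 (1325 bp) were below the median of 2027 bp. Per kb of searched sequence the pooled candidates numbered 0.561 at twnk-1, 0.500 at mtss-1, 0.430 at hmg-5, 0.358 at polg-1 and 0.135 at rpom-1, against 0.322 over all genes. The part of gene length in the higher counts of the long genes was not tested.

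The strongest pooled signals ordered the genes as mtss-1 (28.0), hmg-5 (9.05), twnk-1 (6.40), polg-1 (5.74) and rpom-1 (4.11). A signal as high as that of mtss-1 was reached by 0.315% of all genes, as high as that of hmg-5 by 6.90%, twnk-1 by 20.2%, polg-1 by 26.5% and rpom-1 by 47.0%. The median of the 5 was 6.40, against 3.92 over all genes with those lacking a candidate at 0, and 5.13 over genes with a candidate. The 5 include mtss-1, around whose peak they were chosen, and their median length was 6129 bp, against 2027 bp over all genes. A longer gene offers more searched sequence for a strongest signal, and the part of length in these medians was not tested. In replicate 1 the strongest signals were 11.7 for mtss-1, 2.88 for rpom-1, 2.82 for hmg-5 and 2.75 for twnk-1, so below mtss-1 the genes lay close together. In replicate 2 they were 18.2, 5.95, 4.68, 4.09 and 3.60 in the order of the pooled list. The −log10 q of the strongest pooled candidate was 0.926 at twnk-1, 0.742 at polg-1 and 0.316 at rpom-1, against 1.92 at hmg-5 and 3.16 at mtss-1. In replicate 1, where −log10 q ran from 2.62 to 3.80, the strongest peaks had 3.40 at twnk-1, 3.37 at hmg-5 and 3.34 at rpom-1. That is the reverse of their order by signal in replicate 1, so these values do not rank the genes. These values too are read within a list. The genes were chosen around a final peak at mtss-1, so its first place is not read as support from the replicates. The order of the other genes differed between the replicate lists. A single signal carries no error, and the lists do not share a stated scale, so whether neighbours in this order differ cannot be told from these values.

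**Figure D3:**
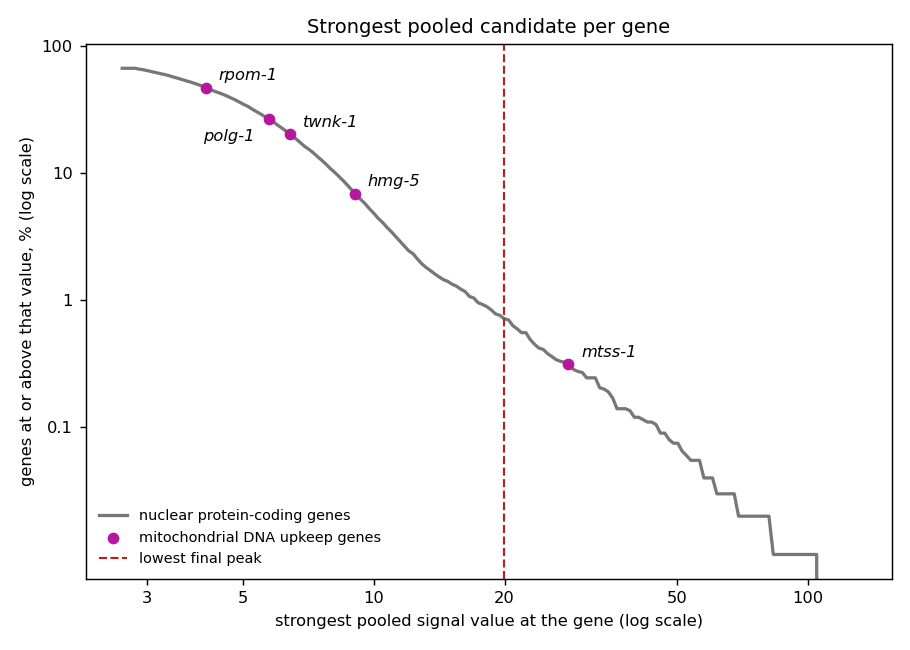
Share of all 19973 nuclear protein-coding genes (log scale, y axis) whose strongest pooled signal is at or above the value on the x axis (log scale); the grey line is all genes, dots the 5 genes, and the dashed line the lowest final peak. mtss-1 lies right of that line, at 0.315% of genes, and the other 4 left of it.

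How often replicates repeat a candidate of like rank puts hmg-5 in context. Its peak was overlapped in both replicates, as were 288 of 999 nuclear candidates ranked 1001 to 2000 (28.8%). Among candidates ranked 5001 to 10000, where the strongest of twnk-1 and polg-1 lie, 11.0% were overlapped by both. The share was 3.995% of those ranked 10001 to 30000, where the other candidates of twnk-1 and polg-1 and those of rpom-1 lie. Among the nuclear final peaks the share was 91.8%, including mtss-1. Replicate 1 is the shorter list, and it overlapped 32.0% of the candidates ranked 1001 to 2000, against 96.0% for replicate 2. The pooled list contains the reads of both replicates, so these overlaps are not independent of it.

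The peaks most like that of mtss-1 in their ranks were sought among the nuclear final peaks, by distance on the log10 scale over the pooled, replicate 1 and replicate 2 ranks. Nearest was a peak 31 bp upstream of mdl-1, a Mad-like transcription factor gene, with a pooled signal of 30.8 and ranks 32 and 82 in replicates 1 and 2. Next came a peak nearest to gei-4 (pooled signal 25.7, ranks 38 and 85), 1433 bp upstream of its closest 5′ end. The third, 315 bp downstream of the 5′ end of pdl-1, had 33.7 and ranks 40 and 64. Those nearest to kin-20, a casein kinase gene (30.1, ranks 51 and 68), and serp-1.1 (30.8, ranks 56 and 110) followed. The kin-20 summit was 1728 bp upstream of its closest 5′ end. The places of these 5 peaks relative to a 5′ end were mixed. Of them the peak at serp-1.1, 300 bp upstream, was the one over 100 and up to 300 bp upstream, as at mtss-1. That interval held 34 of the 122 nuclear final summits.

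**Figure D4:**
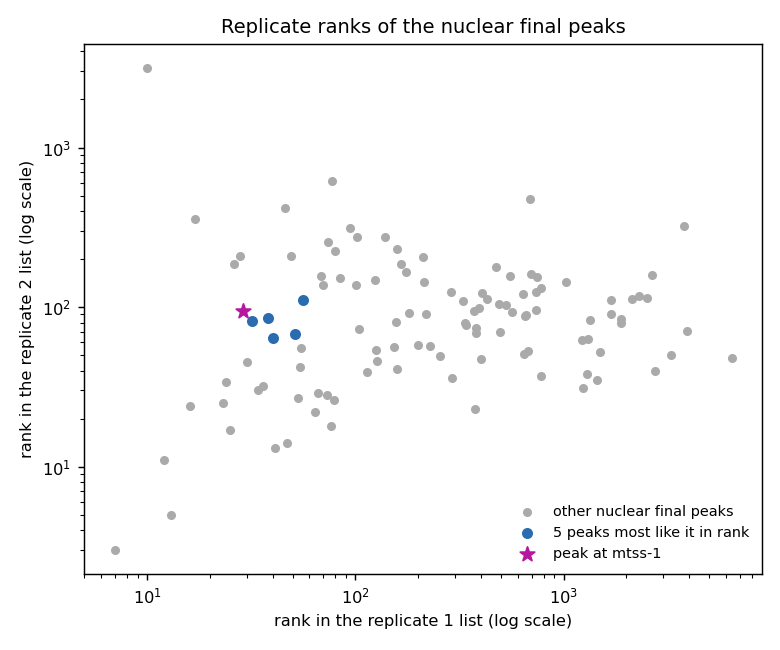
Rank in the replicate 1 list (x axis) and in the replicate 2 list (y axis), both on log scales and with 1 the strongest, for the 112 nuclear final peaks listed in both. The star is the mtss-1 peak at ranks 29 and 94, and blue dots are the 5 peaks nearest to it in rank.

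Other genes of mitochondrial genome care were looked at through 3 lists, with 56 of 59 symbols found in the annotation. Of 17 genes for mitochondrial DNA repair, nucleotide supply and mitochondrial dynamics, 0 had a final peak and 12 a pooled candidate. Of 11 genes for mitochondrial transcription, RNA processing and the mitochondrial stress response, 1 had a final peak and 11 a pooled candidate. Of 28 nuclear replication and transcription counterparts, such as the polymerases and single-strand binding proteins of the nucleus, 1 had a final peak and 26 a pooled candidate. The shares over all genes are those given above, 0.716% and 66.7%. Median strongest pooled signals were 3.66, 5.93 and 4.81 in the order of these lists, against 3.92 over all genes. Median gene lengths were 2630, 4038 and 3515.5 bp in the same order, against 2027 bp over all genes, and the part of length was not tested.

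In the repair and dynamics list drp-1, the dynamin that divides mitochondria, was highest, at a pooled signal of 12.0 (rank 520, replicate ranks 621 and 515). Its candidate lay 490 bp upstream of drp-1 but 36 bp upstream of fem-1, a sex determination gene. Then came the uracil-DNA glycosylase gene ung-1 (5.44), the topoisomerase gene top-1 (4.81), the inner membrane fusion gene eat-3 (4.43) and the abasic endonuclease gene exo-3 (4.20). Replicate 1 overlapped the candidates of drp-1 and exo-3 among these 5. Other 5′ ends were nearer to some of the summits. That of ung-1 was 572 bp from ung-1 and 191 bp from Y56A3A.31, and that of exo-3 721 bp from exo-3 and 10 bp from rbm-3.1. The eat-3 summit, in a coding exon, was 2646 bp from the 5′ end of eat-3 and 2254 bp from that of wbp-2.

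In the transcription and stress list hsp-60, the mitochondrial chaperonin, had the final peak, with a pooled signal of 36.3 (rank 37, replicate ranks 54 and 42), above that of mtss-1. Its summit was 621 bp upstream of hsp-60 and 192 bp upstream of Y22D7AL.10, the nearer gene. The RNA-binding gene mma-1, a counterpart of LRPPRC, followed with 13.7 (rank 333, replicate ranks 178 and 3619), and a snoRNA gene, C14C10.8, lay within 1000 bp of that summit. The protease genes clpp-1 (8.85) and lonp-1 (7.03) and the stress response factor gene atfs-1 (6.87) had no replicate 1 peak at their candidates. The mitochondrial chaperone hsp-6 had 4.33, with the summit 667 bp upstream of hsp-6 but 67 bp from the 5′ end of C37H5.5. The methyltransferase-family factor gene tfbm-1 had 2.85, the lowest of the list, at an intronic summit nearer to the 5′ end of T03F1.11.

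In the nuclear list hmg-1.1, an HMG-box chromatin protein gene, had the final peak, 181 bp upstream of its 5′ end, with a pooled signal of 26.8 (rank 65, replicate ranks 200 and 58). The ncRNA genes Y48B6A.18, Y48B6A.21 and Y48B6A.23 lay within 1000 bp of that summit. Another final peak nearest to hmg-1.1 lay 1019 bp upstream, outside the rule, with a pooled signal of 22.2 (rank 111, replicate ranks 174 and 166). Next in signal were the largest subunits of RNA polymerases I and III, rpoa-1 (8.92) and rpc-1 (8.33), then hmg-1.2 (7.72) and the translesion polymerase gene polh-1 (7.43), and none of these had a replicate 1 peak at its candidate. The polh-1 summit lay 959 bp upstream of polh-1 but 298 bp upstream of F53A3.7. The mitochondrial gene mtss-1 had 28.0, against 2.94, 3.17 and 4.21 at its nuclear single-strand binding counterparts rpa-1, rpa-2 and rpa-4. The rpa-4 summit was nearer to the 5′ end of zipt-11 (138 bp) than to that of rpa-4 (697 bp). The gene polg-1 had 5.74. Among the listed nuclear DNA polymerase genes, polh-1 (7.43), polq-1 (6.75), pola-1 (6.46) and polk-1 (5.77) lay above it, and pole-2 (4.91) and pole-1 (4.70) below. The gene div-1, listed with pola-1, had no pooled candidate. The summits of polq-1, polk-1 and pole-1 were nearer to the 5′ end of another gene, him-10, gpr-1 and mtd-1 in that order. The gene rpom-1, at 4.11, lay below the large RNA polymerase subunits rpoa-1 (8.92), rpc-1 (8.33) and rpb-2 (4.56), and above rpoa-2 (3.97) and the polymerase II gene ama-1 (3.0). Of these counterpart sets the single-strand binding proteins were set furthest apart, a contrast that follows from the choice of mtss-1 by its peak.

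**Figure D5:**
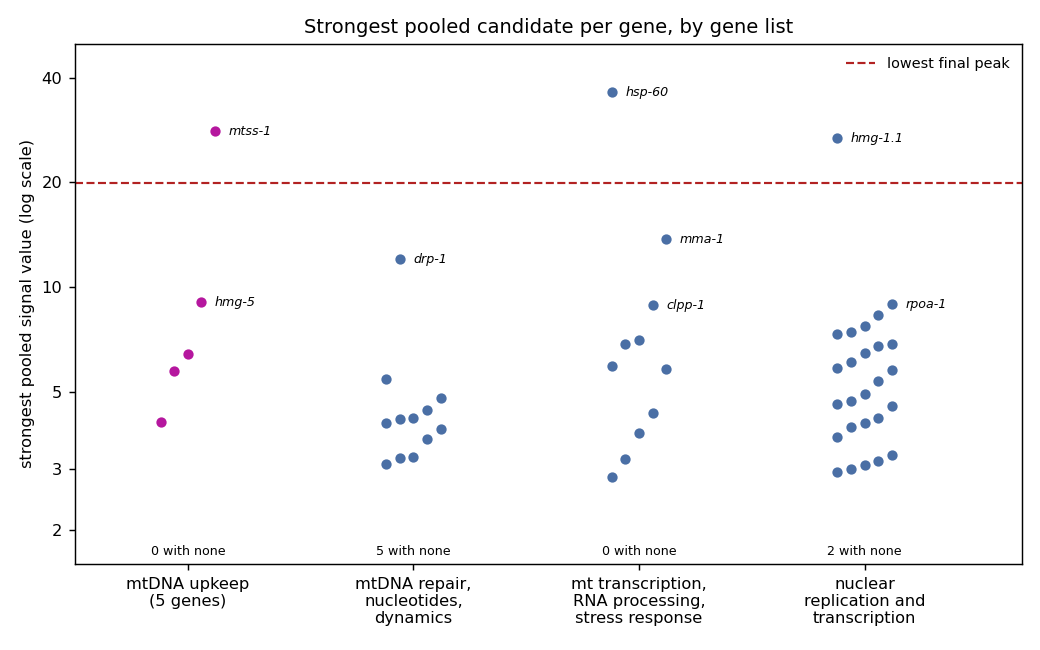
Strongest pooled signal value (log scale, y axis) of each gene in 4 lists (x axis), with the 5 mitochondrial DNA upkeep genes at left; the dashed line is the lowest final peak and the text gives genes without a candidate. mtss-1, hsp-60 and hmg-1.1 lie above the line, at 28.0, 36.3 and 26.8.

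Sequence was not used in choosing the genes. Six-letter motifs were searched on both strands in the promoter window, 250 bases before to 50 after the outermost 5′ end, and in 201 bases around summits. The nuclear receptor half-site AGGTCA was in 0 of the 5 promoters, and in 8.27% of all promoters. Its variant AAGTCA was in that of rpom-1 (13.3% of all), the GATA-type site TGATAA in that of hmg-5 (30.2%), the E-box CACGTG in that of twnk-1 (5.82%), TATAAA in that of polg-1 (37.9%) and GAGAGA in that of mtss-1 (21.8%). No motif of the 6 was in more than 1 of the 5 promoters, but windows around the pooled summits did share some. TATAAA was in windows of hmg-5, polg-1 and rpom-1, TGATAA in windows of polg-1 and rpom-1, and GAGAGA in a window of twnk-1 (rank 17744) besides that of mtss-1. Per window, TATAAA was in 12.3% of the nuclear final and 16.9% of the other candidate windows, and TGATAA in 6.56% and 16.9%. The genes polg-1 and twnk-1 had 4 windows each and rpom-1 had 2, so matches were sought more often there. Nothing is read from this sharing.

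At mtss-1 the GAGAGA match lies at 8768062 to 8768067 on chromosome III, 43 bp upstream of the summit, and can be read in lower case before the capitals in the sequence printed above. None of the other motifs lay within 100 bp of that summit. GAGAGA was in 35.2% of the nuclear final windows and 14.8% of the other nuclear candidates. The hmg-5 window held AAGTCA (4.10% of final and 9.41% of other windows) and TATAAA (12.3% and 16.9%). AGGTCA was in none of the windows around the pooled summits of the 5 genes, and in 3.28% of final and 5.56% of other windows. GC content of the mtss-1 window was 38.8% and of the hmg-5 window 31.3%, against a median of 46.8% in the nuclear final peaks and 38.3% in the other candidates. GC content of the promoter windows was 46.0% at twnk-1, 35.7% at mtss-1, 33.7% at polg-1, 30% at hmg-5 and 26.3% at rpom-1, against a median of 34.3% over all promoters, so the 5 promoters spread to both sides of it.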

How the data were processed

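NHR-76 ChIP-seq of mixed-stage embryos was analysed in 2 biological replicates of 1 group. Per the file headers in the README texts, the authors made peak lists in ce11 from the alignment of each replicate, or of both pooled, against a control alignment, and derived the final list from them. The aligner, the caller and the cut-off are not stated per the labels or headers. Deposited column 7 is the authors' signal value per peak, deposited column 9 the −log10 of q by the narrowPeak definition, and deposited column 10, a position, not a score, gives the summit. Lists in ce10 were not used.

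Peaks were ranked by falling signal and placed on Ensembl release 115 genes of WBcel235, 1 bp or more counting as overlap, with Python 3.11.15. Motifs and sequence came from the RefSeq sequence of that assembly. The peak-to-gene rule was tested on simulated peaks. With 1 group, and genes chosen on these peaks, no test was run; counts are set beside all nuclear protein-coding genes. Genes and lists were chosen with earlier results of these data known. All 5 genes are named, then in each list the genes with a final peak and the 5 with the highest pooled signal. Genes hsp-6, tfbm-1, rpa-1, rpa-2, rpa-4, pola-1, div-1, pole-1, pole-2, polq-1, polk-1, rpb-2, rpoa-2 and ama-1 were added after their values were seen. The alternatives are described in the closing section.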

Additional observations from a re-analysis of the deposited data

How the results depend on the processing

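Of 52 recomputed values, 37 equalled the reported value and 15 differed, and 2 more strongest signals had no value for want of a peak, polg-1 without replicate 2 and rpom-1 with 5′ ends only. The count of 1 gene of the 5 with a final peak was the same with distances of 500 and 2000 bp, with 5′ ends only, with any overlap of the peak, in the 70 stronger final peaks, and without replicate 1 or replicate 2 (the top 140 peaks of the other). Over these settings the share of all genes with a final peak ran from 0.360% to 0.926%. The 5 genes were chosen around the final peak at mtss-1, 201 bp from the 5′ end. Its ranks were 60 in the pooled list, 29 in replicate 1 and 94 in replicate 2. None of these settings could remove it, so the unchanged count, part of the 37 equal values, is not read as support. With 5′ ends only, the strongest signal at twnk-1 was 4.12. The genes with a pooled candidate then numbered 4, where the share over all genes was 54.2%, against 66.7% by the reported rule. Those with a peak in both replicate lists numbered 3, against 4 by the reported rule. The peaks need not overlap, and at twnk-1 and rpom-1 the replicates marked different places. The share over all genes was not computed for this count, so nothing is read from it. The genes with a pooled candidate also numbered 4 without replicate 2, where the share over all genes was 26.6%. The other lists together held 2 genes with a final peak, and 1 at 500 bp, where hsp-60 was lost. Without 1 replicate that count was 1 to 2, hmg-1.1 being lost without replicate 2, where its rank was 200. With 1 replicate list in place of the pooled list, strongest signals were 11.7 to 18.2 at mtss-1, 2.82 to 5.95 at hmg-5, 2.75 to 4.68 at twnk-1, 2.88 to 3.60 at rpom-1 and 4.09 at polg-1, listed in replicate 2 alone; these lists were made from fewer reads and their scales are not stated. No paired analysis was possible because there is 1 group. Depth is unknown, so a missing peak does not show absence of binding.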
